A study of Mus musculus with 8 samples.

Results

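The CXC chemokines examined here were the 9 genes *Cxcl14*, *Cxcl12*, *Cxcl16*, *Cxcl1*, *Cxcl2*, *Cxcl5*, *Cxcl9*, *Cxcl10* and *Cxcl13*, taken by gene symbol from the 18957 genes listed for each library. They were selected on the contrast between the genotypes, whose measured CPM and log2 fold changes in these libraries were already known. Their differences between the genotypes are therefore given as a description, with no p-value for any member. How many of them passed the test of all genes is counted once, beside the share of all genes that did. RNA was sequenced from PDGFRA-positive, lineage-negative and living cells that had been sorted by FACS from the ventricles of mice aged 3 to 4 weeks. There were 4 WT mice, which carried neither Cre nor floxed alleles, and 4 *Pdgfra-Cre:LmnaF/F* mice, in which a Cre transgene driven by *Pdgfra* sequences on a bacterial artificial chromosome deletes the floxed exon 2 of both *Lmna* alleles, with 1 library for each mouse. The strain of all 8 mice is labelled C57BL/6 (mixed), the WT mice were bred as littermates in the same crosses, and the age precedes overt cardiac dysfunction. There were no libraries with the Cre transgene alone, so the transgene and the deletion cannot be told apart. *Pdgfra* is also expressed in mesenchymal tissues outside the heart and, during development, in a few cardiac myocytes. In isolated cells of such mice, the authors report loss of LMNA protein from most but not all PDGFRA-positive cells. They also report its loss from a minority of cardiac myocytes.

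CXC chemokines are small secreted proteins that bind G protein-coupled receptors on leukocytes and other cells and are held on tissue surfaces by heparan sulfate. CXCL1, CXCL2 and CXCL5 act on CXCR2 and attract neutrophils, and fibroblasts make them in response to inflammatory cytokines through NF-kB. CXCL9 and CXCL10 are induced by interferon and act on CXCR3 of T cells, CXCL13 guides B cells through CXCR5, and CXCL16 is a membrane-bound ligand of CXCR6 that is shed by proteases. CXCL12 is made constitutively by stromal cells and acts on CXCR4, and ACKR3 removes it from the tissue. CXCL14 is made by resting epithelium and stroma, and its receptor is less certain than those of the other members.

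*Lmna*, the targeted gene, had 331, 274, 483 and 374 CPM, read counts scaled to the size of each library, in WT replicates 1 to 4. It had 126, 97.4, 130 and 90.4 CPM in *Pdgfra-Cre:LmnaF/F* replicates 1 to 4, so the genotypes did not overlap. Total counts lay between 2080555 in WT replicate 2 and 12502949, and a gene with 3 counts or fewer in a library was taken to be at the floor. WT replicate 3 stood apart from the other libraries on the first principal component, which held 26.2% of the variance. The labels do not give the sex of the mice. Summed RNA of 4 Y-linked genes lay between 143 and 273 CPM in WT replicates 1, 2 and 4 and in *Pdgfra-Cre:LmnaF/F* replicate 4, and between 0.207 and 1.96 CPM in the other 4 libraries. The genotypes thus held 3 and 1 libraries with Y-linked RNA, and values within each kind of library are given beside the 7 members that passed the low-count filter. The 9 fibroblast markers, *Pdgfra* included, were all above the low-count filter, and their summed CPM overlapped between the genotypes.

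The members lie on 4 chromosomes in the GENCODE annotation of GRCm38 (mm10), the build to which the reads had been aligned. *Cxcl1* (chr5:90891241-90893115, plus strand), *Cxcl2* (chr5:90903871-90905938, plus strand) and *Cxcl5* (chr5:90759360-90761624, plus strand) are close neighbours on chromosome 5. *Cxcl9* (chr5:92321347-92328079, minus strand), *Cxcl10* (chr5:92346638-92348889, minus strand) and *Cxcl13* (chr5:95956951-95961068, plus strand) lie further along the same chromosome. *Cxcl14* lies at chr13:56288643-56296551 on the minus strand, *Cxcl12* at chr6:117168535-117181367 on the plus strand and *Cxcl16* at chr11:70453983-70459984 on the minus strand. Exons of *Cxcl10* overlap those of *Art3*, and exons of *Cxcl16* overlap those of *Zmynd15*, in both cases on the opposite strand. The libraries were strand-specific, but the strand setting of the counting is not given in the sources used here. *Cxcl2* shares 161 of its 2121 31-base words (7.59%) with *Cxcl3*, so its count may hold reads of that gene.

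Promoters are shown for *Cxcl14*, *Cxcl1*, its neighbour *Cxcl2* and the interferon-induced *Cxcl10*, since NF-kB and interferon target genes are set beside these members further on. Each is the 250 bases before the gene's start in RefSeq (GRCm38.p6), written 5′ to 3′ on the gene's strand. They are chr5:90890995-90891244 (plus strand) for *Cxcl1*, chr5:90903649-90903898 (plus strand) for *Cxcl2*, chr5:92348890-92349139 (minus strand) for *Cxcl10* and chr13:56296552-56296801 (minus strand) for *Cxcl14*. Capitals mark matches, on either strand, to the NF-kB letters GGGNNTTTCC or GGGNNTTCC and to the interferon response letters GAAANNGAAA.
Cxcl1: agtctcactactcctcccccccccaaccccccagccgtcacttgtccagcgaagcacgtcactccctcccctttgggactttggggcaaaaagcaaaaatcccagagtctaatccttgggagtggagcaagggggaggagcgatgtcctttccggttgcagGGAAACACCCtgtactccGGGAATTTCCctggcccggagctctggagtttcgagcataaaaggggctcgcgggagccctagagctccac
Cxcl2: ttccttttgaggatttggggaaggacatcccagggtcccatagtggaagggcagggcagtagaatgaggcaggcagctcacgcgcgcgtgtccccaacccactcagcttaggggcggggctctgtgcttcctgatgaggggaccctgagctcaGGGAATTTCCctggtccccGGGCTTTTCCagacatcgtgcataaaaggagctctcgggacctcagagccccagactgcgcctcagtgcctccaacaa
Cxcl10: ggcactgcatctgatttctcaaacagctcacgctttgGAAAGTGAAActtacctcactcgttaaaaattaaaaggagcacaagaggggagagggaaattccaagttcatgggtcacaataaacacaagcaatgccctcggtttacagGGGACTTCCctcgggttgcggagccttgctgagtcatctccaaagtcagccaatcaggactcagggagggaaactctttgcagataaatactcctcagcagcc
Cxcl14: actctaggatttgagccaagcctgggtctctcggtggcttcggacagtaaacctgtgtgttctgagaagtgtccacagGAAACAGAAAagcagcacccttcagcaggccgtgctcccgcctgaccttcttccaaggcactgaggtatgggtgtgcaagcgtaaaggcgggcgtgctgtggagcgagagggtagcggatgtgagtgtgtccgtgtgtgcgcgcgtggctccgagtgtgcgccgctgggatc

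Of the 9 members, 7 had a promoter entry, and *Cxcl5* and *Cxcl16* did not. The letters were chosen after the promoters had been seen, and no match overlapped another. *Cxcl1* held GGGAATTTCC at 71 to 62 bases before its start and a match on the other strand, read here as GGAAACACCC, at 89 to 80 bases. *Cxcl2* held the same GGGAATTTCC at 97 to 88 bases and GGGCTTTTCC at 78 to 69 bases. GGGNNTTTCC occurs in 1.41% of 32851 promoter windows of this length. The shorter GGGNNTTCC, found in 4.98% of them, was matched by *Cxcl10* (GGGACTTCC, 103 to 95 bases) and at 2 places in *Cxcl9* (GGGTTTTCC and GGGATTTCC). GAAANNGAAA, found in 2.98%, was matched by *Cxcl10* (GAAAGTGAAA, 213 to 204 bases) and by *Cxcl14* (GAAACAGAAA, 172 to 163 bases). TATAAA, found in 12.4%, was matched by *Cxcl9* and *Cxcl13*, and *Cxcl12* matched none of these letters. These are matches of letters in a fixed window and do not show that a factor binds there.

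Of the 9 members, 7 passed the filter on low counts (filterByExpr of edgeR), and *Cxcl2* and *Cxcl9* did not. Among the 7, *Cxcl1*, *Cxcl5* and *Cxcl10* had a higher fitted level in the *Pdgfra-Cre:LmnaF/F* fibroblasts, and *Cxcl14*, *Cxcl12*, *Cxcl13* and *Cxcl16* a lower one. The median log2 fold change (log2FC, *Pdgfra-Cre:LmnaF/F* over WT) of the 7 was -0.20, and that of all 13036 genes tested was 0.02. *Cxcl14* alone was past an adjusted p of 0.05 in the quasi-likelihood test of edgeR, where 0.407% of all genes tested were past it, 0.238% lower and 0.169% higher. It was also the single member whose genotypes did not overlap, against 8.03% of all genes tested, 3.97% lower and 4.06% higher. Since the contrast was known when the members were chosen, nothing is read from these counts. In sorted bulk samples, fewer cells of a type and less RNA per cell cannot be told apart.

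**Figure D1:**
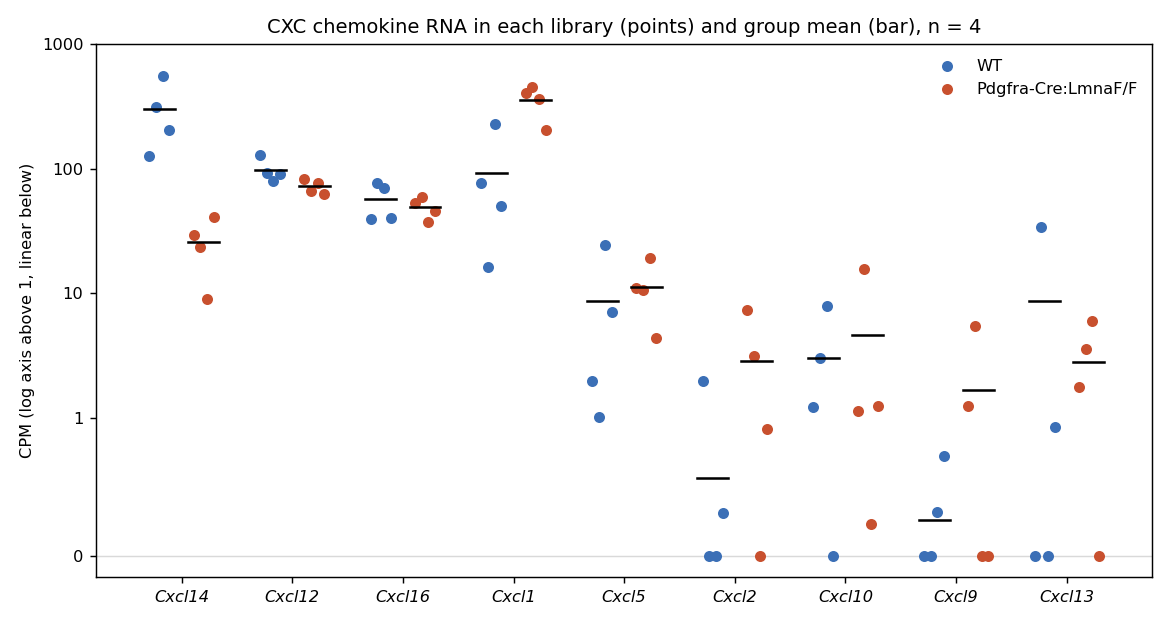
CPM of the 9 CXC chemokines in each library, on an axis that is logarithmic above 1 and linear below, with WT in blue, *Pdgfra-Cre:LmnaF/F* in red and a bar at the mean of the 4 libraries. *Cxcl14* lies between 126 and 558 CPM in the WT and between 8.98 and 40.7 CPM in the *Pdgfra-Cre:LmnaF/F* libraries, and the points of the other 8 members overlap.

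*Cxcl14*, the chemokine of resting stroma, had 126, 311, 558 and 205 CPM in WT replicates 1 to 4. It had 29.2, 23.3, 8.98 and 40.7 CPM in *Pdgfra-Cre:LmnaF/F* replicates 1 to 4. Every *Pdgfra-Cre:LmnaF/F* library lay below every WT library, and each value rested on at least 78 counts. The means were 300 ± 188 and 25.5 ± 13.2 CPM (SD, n = 4), and the log2FC was -3.55 (standard error, SE, 0.48), or 11.7-fold lower in the *Pdgfra-Cre:LmnaF/F* fibroblasts. It ranked 14th from the lowest fold change of all genes tested. Without WT replicate 3, which had the highest level, the log2FC was -3.06. Among libraries with Y-linked RNA, *Cxcl14* had 126 to 311 CPM in the WT and 40.7 CPM in the *Pdgfra-Cre:LmnaF/F* mouse. Among the others it had 558 CPM in the WT mouse and 8.98 to 29.2 CPM in the *Pdgfra-Cre:LmnaF/F* mice.

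Within the WT, the *Cxcl14* levels ranged widely. The highest 2 WT libraries, replicates 3 and 2, also had the highest summed CPM of the cycling-cell markers *Mki67*, *Top2a*, *Cdk1* and *Ccnb1*, at 79.4 and 212 CPM. WT replicates 1 and 4 had 12.1 and 13.0 CPM of these markers, and the *Pdgfra-Cre:LmnaF/F* libraries had 7.20 to 11.7 CPM. None of the 4 markers passed the edgeR threshold, 3 had an unadjusted p under 0.05, and *Mki67* and *Cdk1* were past it with DESeq2. The part of cycling cells in the *Cxcl14* levels was not tested.

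*Cxcl12*, the constitutive stromal ligand of CXCR4, had 129, 92.6, 79.3 and 91.2 CPM in WT replicates 1 to 4. It had 82.5, 65.8, 77.2 and 62.4 CPM in *Pdgfra-Cre:LmnaF/F* replicates 1 to 4. The genotypes overlapped only through WT replicate 3 and *Pdgfra-Cre:LmnaF/F* replicate 1. The means were 97.9 ± 21.3 and 72.0 ± 9.47 CPM (SD, n = 4), with a log2FC of -0.45 (SE 0.21). Among libraries with Y-linked RNA it had 91.2 to 129 CPM in the WT and 62.4 CPM in the *Pdgfra-Cre:LmnaF/F* mouse, and among the others 79.3 CPM and 65.8 to 82.5 CPM. It varied least of the 9 members among libraries of a genotype, relative to its mean.

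*Cxcl16*, the membrane-bound ligand of CXCR6, had 39.1, 77.0, 69.5 and 40.4 CPM in the WT and 53.1, 59.5, 37.2 and 45.5 CPM in the *Pdgfra-Cre:LmnaF/F* libraries. Of the *Pdgfra-Cre:LmnaF/F* values, 3 of 4 lay within the range of the WT. The means were 56.5 ± 19.6 and 48.8 ± 9.65 CPM (SD, n = 4), and the log2FC was -0.20 (SE 0.27). In libraries with Y-linked RNA it was 39.1 to 77.0 CPM in the WT and 45.5 CPM in the *Pdgfra-Cre:LmnaF/F* mouse, and in the others 69.5 CPM and 37.2 to 59.5 CPM. The proteases that release it, *Adam10* and *Adam17*, are described below.

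*Cxcl1*, a neutrophil-attracting ligand of CXCR2, had 76.3, 16.1, 228 and 50.01 CPM in WT replicates 1 to 4. It had 402, 455, 363 and 206 CPM in *Pdgfra-Cre:LmnaF/F* replicates 1 to 4. The genotypes overlapped through WT replicate 3, which lay above *Pdgfra-Cre:LmnaF/F* replicate 4. The means were 92.7 ± 93.8 and 356 ± 107 CPM (SD, n = 4), and the log2FC was 1.93 (SE 0.54), or 3.81-fold higher in the *Pdgfra-Cre:LmnaF/F* fibroblasts. It ranked 185th from the highest fold change of all genes tested.

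The size of this difference depended on single WT libraries. Without WT replicate 3, the log2FC of *Cxcl1* was 2.86, and without WT replicate 2, whose value rested on 32 counts, it was 1.59. Among libraries with Y-linked RNA, *Cxcl1* had 16.1 to 76.3 CPM in the WT and 206 CPM in the *Pdgfra-Cre:LmnaF/F* mouse. Among the others it had 228 CPM in the WT mouse and 363 to 455 CPM in the *Pdgfra-Cre:LmnaF/F* mice. Libraries without Y-linked RNA had more *Cxcl1* within each genotype, and with Y-linked RNA as a covariate the log2FC was 1.56.

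*Cxcl5*, which shares the receptor CXCR2, was far less abundant. It had 1.96, 1.01, 24.4 and 7.04 CPM in the WT and 11.0, 10.5, 19.2 and 4.33 CPM in the *Pdgfra-Cre:LmnaF/F* libraries. WT replicate 3 held the highest value of all, as it held the highest *Cxcl1* of the WT. The log2FC was 0.36 (SE 0.77) with all libraries and 1.67 without WT replicate 3. In libraries without Y-linked RNA, *Cxcl5* was 24.4 CPM in the WT mouse and 10.5 to 19.2 CPM in the *Pdgfra-Cre:LmnaF/F* mice. In those with it, it was 1.01 to 7.04 CPM in the WT and 4.33 CPM in the *Pdgfra-Cre:LmnaF/F* mouse, so no direction held within both kinds of library.

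*Cxcl2*, the third CXCR2 ligand, did not pass the filter. It had 21, 0, 0 and 3 counts in WT replicates 1 to 4 and 71, 30, 0 and 11 counts in *Pdgfra-Cre:LmnaF/F* replicates 1 to 4. It was above the floor of 3 counts in 1 WT and 3 *Pdgfra-Cre:LmnaF/F* libraries, with at most 7.34 CPM. A count of 0 in a library allows up to 3 counts, for counting error only. Over total counts, without the TMM factors of the other CPM, these are 1.44 CPM in WT replicate 2 and 0.473 CPM in WT replicate 3. In *Pdgfra-Cre:LmnaF/F* replicate 3 they are 0.362 CPM.

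*Cxcl10*, the interferon-induced ligand of CXCR3, had 13, 6, 49 and 0 counts in the WT and 11, 151, 2 and 15 counts in the *Pdgfra-Cre:LmnaF/F* libraries. These were 1.21, 3.02, 7.83 and 0 CPM in the WT and 1.14, 15.7, 0.230 and 1.25 CPM in the *Pdgfra-Cre:LmnaF/F* fibroblasts. The log2FC was 0.62 (SE 1.38), and it turned to -1.76 without *Pdgfra-Cre:LmnaF/F* replicate 2 and to -0.11 with Y-linked RNA as a covariate. In libraries with Y-linked RNA, *Cxcl10* was 0 to 3.02 CPM in the WT and 1.25 CPM in the *Pdgfra-Cre:LmnaF/F* mouse, and in the others 7.83 CPM and 0.230 to 15.7 CPM. *Cxcl9*, the other CXCR3 ligand, did not pass the filter, with 0, 0, 2 and 7 counts in the WT and 12, 52, 0 and 0 counts in the *Pdgfra-Cre:LmnaF/F* libraries. Its highest value, 5.42 CPM, was in the same *Pdgfra-Cre:LmnaF/F* replicate 2.

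*Cxcl13*, the B cell chemokine, had 0, 67, 0 and 9 counts in the WT and 17, 34, 52 and 0 counts in the *Pdgfra-Cre:LmnaF/F* libraries. These were 0, 33.7, 0 and 0.932 CPM in the WT and 1.76, 3.55, 5.99 and 0 CPM in the *Pdgfra-Cre:LmnaF/F* fibroblasts. The log2FC was -1.55 (SE 1.65) with all libraries and 3.09 without WT replicate 2. In libraries with Y-linked RNA, *Cxcl13* was 0 to 33.7 CPM in the WT and 0 in the *Pdgfra-Cre:LmnaF/F* mouse, and in the others it was 0 in the WT mouse and 1.76 to 5.99 CPM in the *Pdgfra-Cre:LmnaF/F* mice. The direction thus differed between the kinds of library. WT replicate 2 had the fewest total counts and the highest summed CPM of mesothelial markers, 45.8 against at most 23.1 CPM in the others, and the part of either in the *Cxcl13* value was not tested.

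Levels of different genes were set side by side per length, as CPM per kilobase of exon. In the WT, *Cxcl14* was the most abundant member at 164 ± 103 CPM per kilobase, followed by *Cxcl1* at 49.5 ± 50.03, *Cxcl16* at 18.7 ± 6.48 and *Cxcl12* at 12.0 ± 2.61 (SD, n = 4). *Cxcl13*, *Cxcl5* and *Cxcl10* followed with means of 7.53, 4.62 and 1.34 CPM per kilobase. *Cxcl14* was above *Cxcl1* in 4 of 4 WT libraries, by 2.11 ± 1.56 on the log2 scale. *Cxcl1* and *Cxcl16* differed by 0.87 ± 1.72, and *Cxcl16* and *Cxcl12* by 0.60 ± 0.74 on that scale, so neither pair differed beyond its spread. The neighbours below *Cxcl12* kept their order in 3 of 4 libraries or fewer, with libraries at 0.

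In the *Pdgfra-Cre:LmnaF/F* fibroblasts, *Cxcl1* was the most abundant member at 190 ± 57.3 CPM per kilobase, followed by *Cxcl16* at 16.2 ± 3.19, *Cxcl14* at 13.98 ± 7.23 and *Cxcl12* at 8.81 ± 1.16 (SD, n = 4). *Cxcl5*, *Cxcl13* and *Cxcl10* followed with means of 6.05, 2.45 and 2.04 CPM per kilobase. *Cxcl1* was above *Cxcl16* in 4 of 4 libraries, by 3.52 ± 0.47 on the log2 scale. From *Cxcl16* through *Cxcl14* and *Cxcl12* to *Cxcl5*, neighbours differed by less than 1 SD and kept this order in 3 of 4 libraries. *Cxcl5* was above *Cxcl13* in 4 of 4 libraries, by 2.92 ± 3.34, and *Cxcl13* above *Cxcl10* in 2 of 4.

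**Figure D2:**
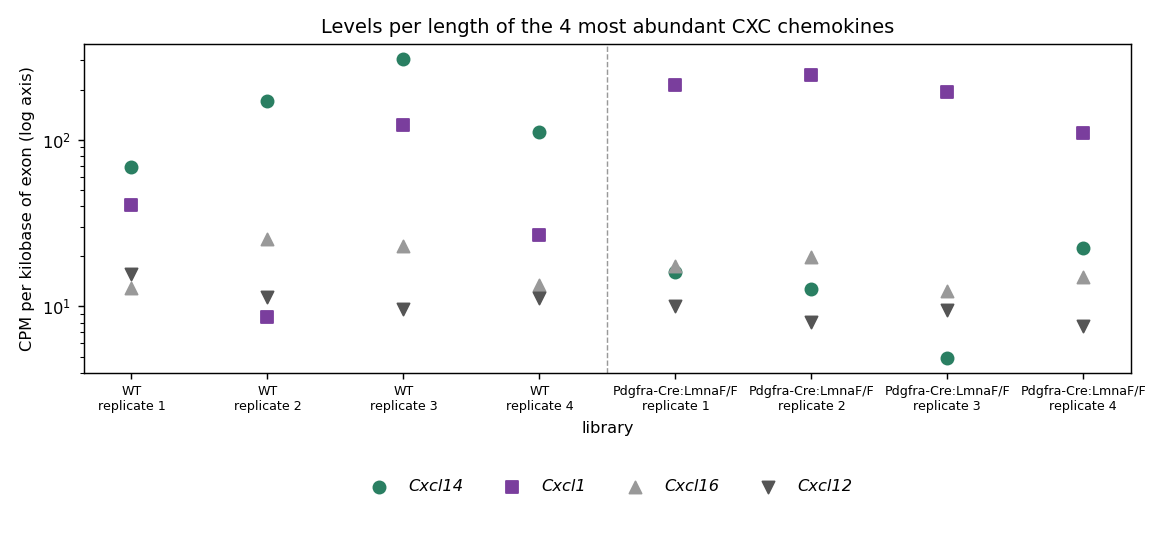
CPM per kilobase of exon, on a logarithmic axis, of *Cxcl14* (green circles), *Cxcl1* (purple squares), *Cxcl16* (light triangles) and *Cxcl12* (dark inverted triangles) in the 8 libraries, with the WT on the left of the dashed line. *Cxcl14* is the highest of these 4 in each WT library and *Cxcl1* in each *Pdgfra-Cre:LmnaF/F* library.

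Shares of the summed CXC chemokine RNA restate the *Cxcl14* and *Cxcl1* values above, and a share of one rises as the other falls. The summed CPM of the 9 members was 375 to 967 in the WT and 361 to 642 in the *Pdgfra-Cre:LmnaF/F* fibroblasts. *Cxcl14* made up 33.5% to 58.2% of that sum in the WT and 1.76% to 11.3% in the *Pdgfra-Cre:LmnaF/F* libraries. *Cxcl1* made up 3.01% to 23.6% in the WT and 57.0% to 70.9% in the *Pdgfra-Cre:LmnaF/F* libraries. The log2 ratio of *Cxcl1* to *Cxcl14* CPM was -0.72, -4.27, -1.29 and -2.03 in WT replicates 1 to 4 and 3.78, 4.29, 5.34 and 2.34 in *Pdgfra-Cre:LmnaF/F* replicates 1 to 4. The ratio sets against each other the members with the highest and the lowest log2FC among the 7, so its separation of the genotypes follows from that choice, and *Cxcl1* CPM alone overlapped.

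The other genes of the pathway were described with lists of receptors, proteases, proteoglycans, regulators and targets, and for these the edgeR test with Benjamini-Hochberg adjustment over all 13036 genes is given. Of 127 list genes, 118 were tested in edgeR. Past an adjusted p of 0.05 were 5 of them (4 higher and 1 lower), where 0.407% of all genes were. The lists were chosen with earlier results of these data known. Nothing is therefore read from the counts of list genes, and their p-values are given as a description. Without WT replicate 4, 0 list genes and 13 of all 13540 genes passed the threshold in edgeR, and 30 list genes had an unadjusted p under 0.05. Without *Pdgfra-Cre:LmnaF/F* replicate 4, 13 list genes and 76 of all 13447 genes passed it. With all libraries, 36 list genes and 1550 of all genes had an unadjusted p under 0.05 in edgeR. DESeq2, run without the low-count filter, called 21 of 124 list genes and 309 of all 18957 genes.

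Of the other CXC ligands, 2 of 6 were tested and neither passed in edgeR, 1 had an unadjusted p under 0.05, and DESeq2 called 1, *Cxcl15*. *Cxcl3* and *Cxcl11* were not among the genes listed for these libraries. *Cxcl15*, a ligand best known in lung epithelium, had 11.8, 35.7, 41.9 and 3.11 CPM in the WT and 4.45, 2.82, 6.91 and 0.333 CPM in the *Pdgfra-Cre:LmnaF/F* libraries. Its genotypes overlapped through WT replicate 4, and its log2FC was -2.66 (SE 0.82, edgeR adjusted p = 0.194). With Y-linked RNA as a covariate the edgeR adjusted p was 0.0442, and over all alternatives it was 0.0121 to 0.424. Its highest 2 libraries, WT replicates 3 and 2, were those with the highest *Cxcl14*. *Pf4*, a platelet chemokine, had a log2FC of 0.28 (edgeR adjusted p = 0.937), which was -0.0244 to 0.72 with single libraries left out.

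Of the 9 CXC receptors and scavengers, 5 were tested and none passed in edgeR, 1 had an unadjusted p under 0.05, and DESeq2 called 1. The median log2FC was 0.25, with 4 genes higher and 1 lower. *Ackr3*, the scavenging receptor of CXCL12, had 713, 678, 508 and 772 CPM in the WT and 447, 297, 155 and 226 CPM in the *Pdgfra-Cre:LmnaF/F* libraries. The genotypes did not overlap, as for 8.03% of all genes tested, and the log2FC was -1.25 (SE 0.28, edgeR adjusted p = 0.0833). The Wald test of DESeq2 gave *Ackr3* an adjusted p of 0.000885, and over all alternatives it was 0.000885 to 0.223.

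The signalling receptors that passed the filter had low levels in these sorted cells. *Cxcr4* had means of 3.86 ± 3.08 and 4.29 ± 2.94 CPM (SD, n = 4). *Cxcr5*, the CXCL13 receptor, and *Cxcr6*, the CXCL16 receptor, had at most 5.75 and 3.5 CPM in any library, with log2FCs of 0.94 (edgeR adjusted p = 0.863) and 0.91 (edgeR adjusted p = 0.882). With single libraries left out, the log2FC of *Cxcr5* was 0.35 (without *Pdgfra-Cre:LmnaF/F* replicate 4) to 1.80 (without WT replicate 2), and that of *Cxcr6* was 0.42 (without *Pdgfra-Cre:LmnaF/F* replicate 4) to 2.88 (without WT replicate 1). *Cxcr1*, *Cxcr3* and *Ackr1* did not pass the filter, and *Cxcr2* was not among the genes listed for these libraries.

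Of the 8 proteases that cut or shed CXC ligands, 7 were tested and none passed in edgeR, 2 had an unadjusted p under 0.05, DESeq2 called 1, and the median log2FC was -0.29. *Adam17*, a sheddase that releases membrane-bound ligands, had 203, 192, 310 and 221 CPM in the WT and 141, 167, 126 and 105 CPM in the *Pdgfra-Cre:LmnaF/F* libraries. The genotypes did not overlap, with a log2FC of -0.78 (SE 0.22, edgeR adjusted p = 0.147). DESeq2 gave it an adjusted p of 0.0310, and edgeR with Y-linked RNA as a covariate one of 0.0300, and over all alternatives it was 0.0300 to 0.301. *Adam10*, the other sheddase, had 61.03 ± 4.05 and 65.9 ± 21.9 CPM (SD, n = 4). *Anpep*, an aminopeptidase, had a log2FC of -0.66 (edgeR adjusted p = 0.257), and *Mmp2*, a gelatinase that cleaves CXCL12, one of -0.29 (edgeR adjusted p = 0.634).

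Of 21 genes of heparan sulfate synthesis and proteoglycans, all tested, 1 fell and none rose in edgeR, where 0.407% of all genes passed. An unadjusted p under 0.05 was found for 4, and DESeq2 called 2, *Sulf2* and *Sdc3*, where it called 309 of all 18957 genes. The median log2FC was -0.18, with 15 genes lower and 6 higher. *Sulf2*, an extracellular enzyme that removes sulfate from heparan sulfate, had 533, 563, 256 and 601 CPM in the WT and 174, 177, 186 and 217 CPM in the *Pdgfra-Cre:LmnaF/F* libraries. The log2FC of *Sulf2* was -1.37 (SE 0.25, edgeR adjusted p = 0.0331), and the genotypes did not overlap. It was past the threshold in 2 of 8 fits that left out a library, those without WT replicate 3 and without *Pdgfra-Cre:LmnaF/F* replicate 4, and in the other 6 its edgeR adjusted p was 0.0626 to 0.109. With Y-linked RNA as a covariate it was 0.0621, and over all alternatives it was 1.35e-05 to 0.109. *Sdc3*, a syndecan, had a log2FC of -0.91 (edgeR adjusted p = 0.166, DESeq2 adjusted p = 0.0371, and 0.0316 to 0.424 over all alternatives). *Hspg2*, which encodes perlecan, had one of -0.57 (edgeR adjusted p = 0.364).

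**Figure D3:**
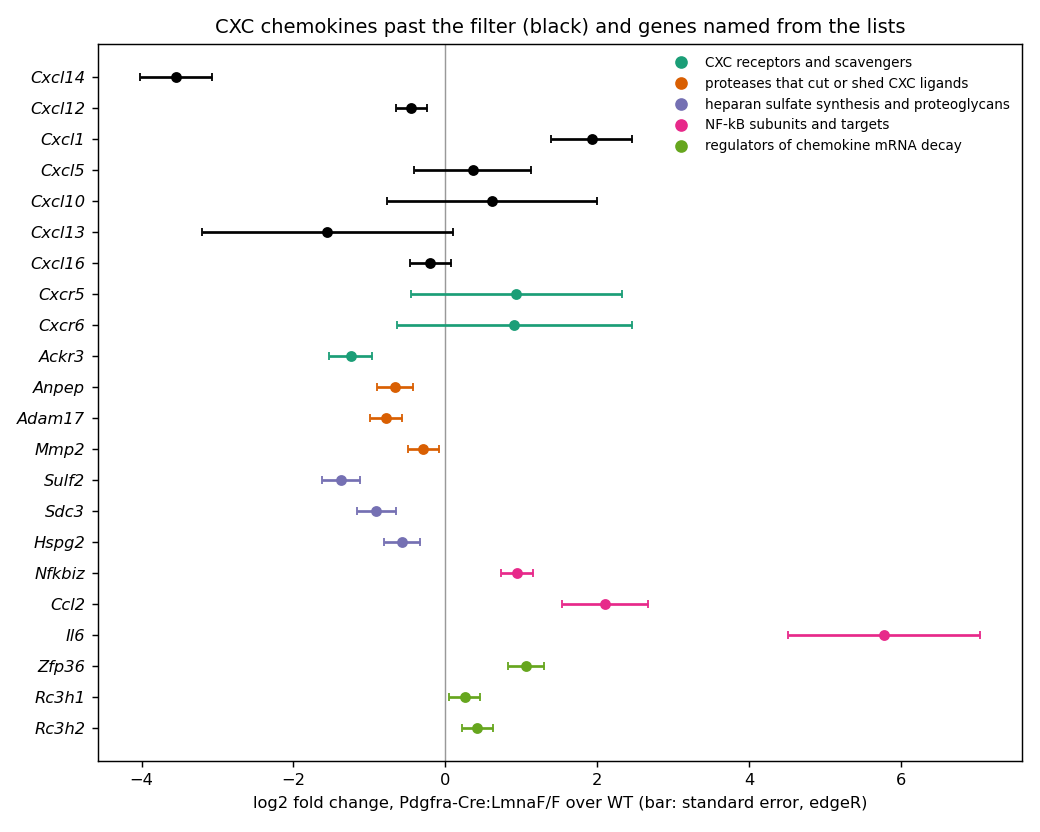
Log2FC of *Pdgfra-Cre:LmnaF/F* over WT with its standard error (bar) from edgeR, for the 7 members past the filter in black and for genes named from 5 of the lists in colour. *Cxcl14* (-3.55), *Ackr3* (-1.25) and *Sulf2* (-1.37) lie to the left of 0, and *Cxcl1* (1.93), *Nfkbiz* (0.95) and *Zfp36* (1.06) to the right.

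Of 18 NF-kB subunits and targets, all tested, none passed the edgeR threshold, 9 had an unadjusted p under 0.05, DESeq2 called 2 (*Nfkbiz* and *Il6*), and the median log2FC was 0.41, with 12 genes higher and 6 lower. *Il6*, an inflammatory cytokine, had 0, 0, 0 and 5 counts in the WT and 49, 142, 145 and 26 counts in the *Pdgfra-Cre:LmnaF/F* libraries (edgeR adjusted p = 0.0709). It did not overlap between the genotypes, and its WT libraries were at or near 0. *Nfkbiz*, an NF-kB cofactor that promotes *Il6* transcription, had 88.4, 68.4, 102 and 63.3 CPM in the WT and 155, 166, 178 and 122 CPM in the *Pdgfra-Cre:LmnaF/F* libraries. Its log2FC was 0.95 (SE 0.21, edgeR adjusted p = 0.0800), and over all alternatives, DESeq2 included, the adjusted p of *Nfkbiz* was 0.00616 to 0.262.

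*Ccl2*, a monocyte-attracting CC chemokine, had 28.6, 10.1, 28.4 and 32.2 CPM in the WT and 212, 148, 62.9 and 15.6 CPM in the *Pdgfra-Cre:LmnaF/F* libraries, with a log2FC of 2.10 (SE 0.57, edgeR adjusted p = 0.135). Over all alternatives the adjusted p of *Ccl2* was 0.000514 to 0.628, the highest with Y-linked RNA as a covariate, and it was past the threshold with no filter and without *Pdgfra-Cre:LmnaF/F* replicate 4. In *Pdgfra-Cre:LmnaF/F* replicate 4, which had the least *Cxcl1* of that genotype, *Ccl2* was within the range of the WT. The subunit *Nfkb1* had 171 ± 14.3 and 126 ± 23.8 CPM (SD, n = 4), with a log2FC of -0.44 (edgeR adjusted p = 0.393). Of 15 upstream cytokine receptors, all tested, none passed in edgeR or DESeq2, 1 had an unadjusted p under 0.05, and the median log2FC was -0.04. *Il1r1*, the IL-1 receptor, had a log2FC of 0.37 (edgeR adjusted p = 0.477), *Il1rap*, its accessory chain, one of -0.46 (edgeR adjusted p = 0.453) and *Tlr2* one of -1.29 (edgeR adjusted p = 0.386). *Tlr2* stood at 45.1 CPM in WT replicate 3 and at 5.98 to 14.9 CPM in the other WT libraries, and its log2FC was -0.48 without WT replicate 3.

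The stability of *Cxcl1*, *Cxcl2* and other AU-rich chemokine transcripts is controlled in part by RNA-binding proteins. Of 7 such regulators, all tested, none passed in edgeR, 1 had an unadjusted p under 0.05, DESeq2 called 1, and the median log2FC was 0.22. *Zfp36*, which encodes tristetraprolin and marks these transcripts for decay, had 87.2, 70.9, 128 and 86.0 CPM in the WT and 170, 146, 232 and 233 CPM in the *Pdgfra-Cre:LmnaF/F* libraries. It was higher in each *Pdgfra-Cre:LmnaF/F* library than in each WT library, with a log2FC of 1.06 (SE 0.23, edgeR adjusted p = 0.0709). Over all alternatives, DESeq2 included, the adjusted p of *Zfp36* was 0.00326 to 0.223. *Rc3h1* and *Rc3h2*, which encode the decay factors roquin-1 and roquin-2, had log2FCs of 0.25 and 0.42 (edgeR adjusted p = 0.700 and 0.453).

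The 23 immediate-early and dissociation-response genes are known to be induced by enzymatic release of cells from tissue. In edgeR 4 rose and none fell, where 0.407% of all genes passed, and 16 had an unadjusted p under 0.05. DESeq2 called 13, where it called 309 of all 18957 genes, and the median log2FC was 1.37. *Egr2*, an early growth response factor, rose by 2.65 on the log2 scale (edgeR adjusted p = 0.0202), from 11.1 to 33.4 CPM in the WT to 72.4 to 264 CPM in the *Pdgfra-Cre:LmnaF/F* libraries. *Ier3*, an early survival gene, rose by 1.88 (edgeR adjusted p = 0.0221), *Btg2*, an antiproliferative gene, by 2.08 (edgeR adjusted p = 0.0315) and *Nr4a1*, an orphan nuclear receptor, by 1.92 (edgeR adjusted p = 0.0471). *Egr2* lost its call in 1 of 8 fits that left out a library, the one without WT replicate 4, with an edgeR adjusted p of 0.0523. *Ier3* lost it without WT replicates 1 and 4 and *Pdgfra-Cre:LmnaF/F* replicate 3. *Btg2* lost it without those 3 libraries and *Pdgfra-Cre:LmnaF/F* replicate 2, and *Nr4a1* lost it in each such fit except the one without *Pdgfra-Cre:LmnaF/F* replicate 4. *Nr4a1* also lost it with Y-linked RNA as a covariate (edgeR adjusted p = 0.0728) and with 1 RUVr factor (0.0502).

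The level of *Cxcl1* is set beside these genes library by library. The mean of the list, as log2 CPM centred on each gene's mean, was -0.54, -1.04, -0.27 and -0.55 in WT replicates 1 to 4 and 0.57, 0.52, 1.03 and 0.29 in *Pdgfra-Cre:LmnaF/F* replicates 1 to 4. WT replicate 2 was lowest and WT replicate 3 highest of the WT in both *Cxcl1* and the list, and *Pdgfra-Cre:LmnaF/F* replicate 4 was lowest of its genotype in both. The other 3 *Pdgfra-Cre:LmnaF/F* libraries ran in the reverse order, with replicate 2 highest for *Cxcl1* and replicate 3 highest for the list. The part of the dissociation response in the *Cxcl1* levels was not tested. For *Cxcl14*, the highest 2 WT libraries were replicates 3 and 2, the highest and the lowest of the WT for the list. Among the *Pdgfra-Cre:LmnaF/F* libraries, replicate 3 was highest for the list and lowest for *Cxcl14* (8.98 CPM), and replicate 4 was lowest for the list and highest for *Cxcl14* (40.7 CPM). The part of the response in the *Cxcl14* levels was not tested either.

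**Figure D4:**
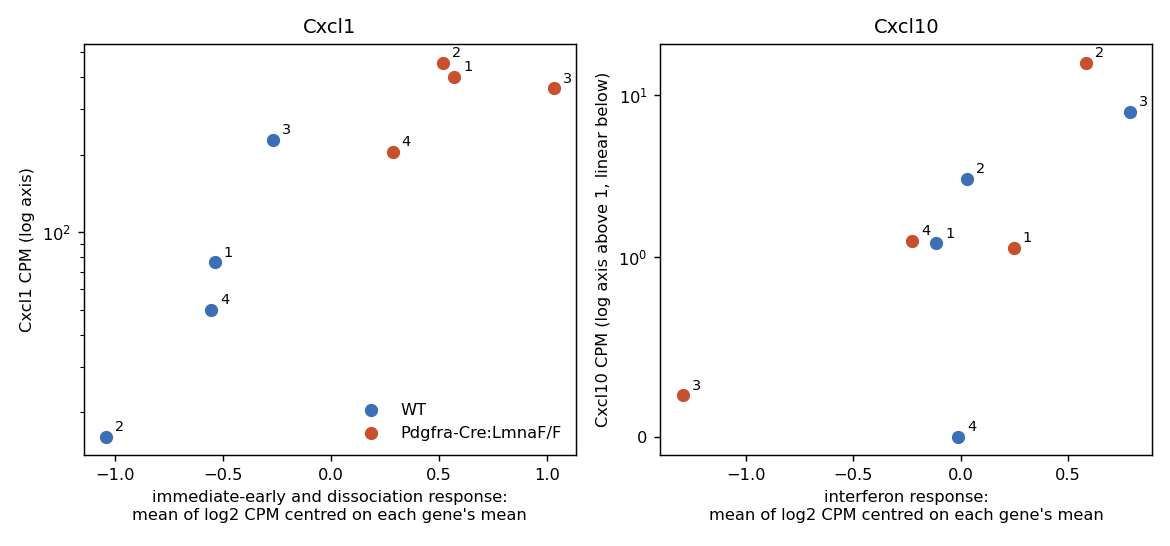
Left, *Cxcl1* CPM (logarithmic axis) against the mean of the 23 immediate-early and dissociation-response genes in each library, as log2 CPM centred on each gene's mean. Right, *Cxcl10* CPM (logarithmic above 1, linear below) against the same mean of the 20 interferon response genes, with WT in blue, *Pdgfra-Cre:LmnaF/F* in red and replicate numbers beside the points. *Cxcl1* is lowest in WT replicate 2, which also has the lowest mean on the left (-1.04), and *Cxcl10* is highest in *Pdgfra-Cre:LmnaF/F* replicate 2 and WT replicate 3, which have the highest means on the right (0.58 and 0.79).

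Of 20 interferon response genes, all tested, none passed in edgeR or DESeq2, 1 had an unadjusted p under 0.05, and the median log2FC was -0.07, with 7 genes higher and 13 lower. *Psmb9*, an immunoproteasome subunit, had a log2FC of -1.79 (edgeR adjusted p = 0.343), *Gbp2*, a guanylate-binding protein gene, one of -0.82 (edgeR adjusted p = 0.457) and *Ifit2* one of 0.77 (edgeR adjusted p = 0.535). The mean of the list was -0.11, 0.03, 0.79 and -0.01 in WT replicates 1 to 4 and 0.25, 0.58, -1.30 and -0.22 in *Pdgfra-Cre:LmnaF/F* replicates 1 to 4. The highest 2 libraries for *Cxcl10*, *Pdgfra-Cre:LmnaF/F* replicate 2 and WT replicate 3, were the highest 2 for this list, in the reverse order. *Pdgfra-Cre:LmnaF/F* replicate 3 was lowest of its genotype for both. Within the WT, replicate 4 was lowest for *Cxcl10*, with 0 counts, and replicate 1 was lowest for the list. The part of the interferon response in the *Cxcl10* levels was not tested. *Gbp2* stood at 156 CPM in WT replicate 3 and at 41.3 to 46.3 CPM in the other WT libraries, and its log2FC was -1.01 to -0.11 with single libraries left out.

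Several members are also made by leukocytes and other cells that a sort could let through. Of 57 tested marker genes, which cover 11 of 12 cell types, none passed the edgeR threshold and 7 had an unadjusted p under 0.05. DESeq2 called 3 of 78, *Mki67*, *Cdk1* and the endothelial *Tek*, where it called 309 of all 18957 genes. Every listed gene had at least 4 counts over the 8 libraries, so no listed marker could be at 0 in all of them. Only 8 of 9 lymphocyte, 3 of 4 adipocyte and 4 of 5 platelet markers were listed. Of the 6 neutrophil markers, none passed the low-count filter, and their summed CPM was 0.561 to 3.20 in the WT and 0.828 to 7.20 in the *Pdgfra-Cre:LmnaF/F* libraries. The 10 macrophage markers summed to 55.0 to 198 CPM in the WT and 62.7 to 524 CPM in the *Pdgfra-Cre:LmnaF/F* libraries, with the highest sum of the WT in replicate 3, which had the most *Cxcl1* of the WT, and the highest of all in *Pdgfra-Cre:LmnaF/F* replicate 4, which had the least *Cxcl1* of that genotype. The part of macrophages in the *Cxcl1* levels was not tested. *Pdgfra-Cre:LmnaF/F* replicate 4 also held 5699 CPM of cardiac myocyte markers, against at most 1020 CPM in the other 7. Lymphocyte markers summed to 6.01 to 14.1 and 2.59 to 19.1 CPM. Without *Pdgfra-Cre:LmnaF/F* replicate 4, the log2FC was 2.11 for *Cxcl1* and -3.87 for *Cxcl14*.

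Endothelial markers, from cells that also make *Cxcl12* and *Ackr3*, summed to 574 to 792 CPM in the WT and 445 to 590 CPM in the *Pdgfra-Cre:LmnaF/F* libraries. The 2 ranges overlapped only through WT replicate 2 and *Pdgfra-Cre:LmnaF/F* replicate 4, and both genes were lower on average in the same genotype. *Tek* alone made up 55.7% to 73.7% of the sum, with 377 to 543 CPM in the WT and 287 to 342 CPM in the *Pdgfra-Cre:LmnaF/F* libraries. Without it the sums overlapped more widely, at 197 to 304 and 122 to 261 CPM. Of the 8 markers, 7 were lower on average in the *Pdgfra-Cre:LmnaF/F* libraries and *Vwf* was higher, and the genotypes did not overlap for *Tek* and *Cdh5*. The part of endothelial cells in these levels was not tested. Mesothelial markers summed to 11.0 to 45.8 CPM in the WT and 6.67 to 15.7 CPM in the *Pdgfra-Cre:LmnaF/F* libraries, and overlapped through WT replicate 3, the library with the most *Cxcl14*. Their part in the levels of *Cxcl14* and *Cxcl12*, both lower on average in the same genotype, was not tested. Mural markers summed to 260 to 424 and 216 to 574 CPM, Schwann cell markers to 26.5 to 50.5 and 33.2 to 57.4 CPM, platelet markers to 9.11 to 16.6 and 8.90 to 14.9 CPM, and adipocyte markers to 0 to 5.53 and 0.115 to 11.2 CPM.

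The genes whose log2 CPM profile over the 8 libraries, centred on each gene's mean, lay closest to that of a member were named by the root-mean-square distance. For *Cxcl14*, whose own profile had a root-mean-square of 1.93 about its mean, they were *Sct* (0.52), *Nipal2* (0.68) and *Slc6a13* (0.72). *Sct*, which encodes the hormone secretin, had 17, 6, 31 and 34 counts in the WT and 0, 0, 0 and 4 counts in the *Pdgfra-Cre:LmnaF/F* libraries. *Slc6a13*, a GABA and taurine transporter gene, had 35, 7, 19 and 21 counts in the WT and 0, 0, 0 and 3 counts in the *Pdgfra-Cre:LmnaF/F* libraries. All 3 were near the floor in the *Pdgfra-Cre:LmnaF/F* fibroblasts, and their means were 3.001 to 3.34 CPM in the WT.

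For *Cxcl1*, with a root-mean-square of 1.60 about its mean, they were the interferon-inducible *Ifi47* (0.49), the immediate-early gene *Fos* (0.51) and *Actr6* (0.57). *Fos*, the only abundant gene of these 3, had 542, 145, 922 and 465 CPM in the WT and 1438, 1831, 2472 and 1519 CPM in the *Pdgfra-Cre:LmnaF/F* libraries. Like *Cxcl1*, it was lowest in WT replicate 2 and, within the WT, highest in WT replicate 3. For *Cxcl12* the closest genes were *Parva*, *Svil* and *Numb* (0.10 to 0.13), and for *Cxcl16* they were *Sp100*, *Vps29* and *Psme2* (0.14 to 0.15), all expressed in every library.

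For the members of low abundance the distances were 0.60 to 0.61 for *Cxcl5* (*Slc51a*, *Cacna1f* and *Ppp1r1c*), 0.95 to 0.97 for *Cxcl10* (*Ap3b2*, *Tnfsfm13* and *Mob3b*) and 0.94 to 1.29 for *Cxcl13* (*Cntn4*, *Hist1h2bj* and *Pcdh11x*). The means of these 9 genes were at most 4.48 CPM in either genotype, so their profiles rest on few counts.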

How the data were processed

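The 8 libraries (4 WT and 4 *Pdgfra-Cre:LmnaF/F* mice) were grouped by the genotype in the sample labels. RNA with a RIN above 8 was depleted of ribosomal RNA, and the strand-specific libraries gave paired-end reads of 150 bp. The authors used HISAT2 with mm10 for alignment and featureCounts with GENCODE for counting. The deposited values are unscaled whole-number counts, 1 row for each gene symbol. The RUV normalization named in the methods is not in these counts. The lowest total of a listed gene over the 8 libraries was 4 counts, and 24 symbols written as dates enter no list. Total counts were 2080555 to 12502949 per library, and floors and depths cover counting error only.

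Tests were run in R 4.3.3 with edgeR 4.0.16 (TMM factors, filterByExpr, quasi-likelihood test with genotype as the only term, Benjamini-Hochberg adjustment over 13036 genes, threshold 0.05), limma 3.58.1 and DESeq2 1.42.0, and in Python 3.11.15. CPM are scaled by TMM, and log2 CPM use a prior count of 2. The procedure was tested on simulated counts. The CXC chemokines and the gene lists were chosen with earlier results of these data known. The genes named are the 9 members, *Lmna*, list genes past the threshold or the 3 with the lowest p in a list, and the 3 genes closest in profile to each member. *Cxcr4*, *Adam10*, *Nfkb1*, marker genes and the genes overlapping a member were named in addition, after their values were seen. Alternatives were DESeq2, RLE factors, no filter, a replicate block, 1 RUVr factor, Y-linked RNA as a covariate and leaving out each library. Gene positions are from GENCODE M21 and promoters from RefSeq.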

Additional observations from a re-analysis of the deposited data

Results flagged for a closer look

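Of 74 groups of 4 libraries examined, 11 held a library far from the other 3, by a gap past the critical value of Dixon's test. For normal values, chance gives about 1 in 20 groups such a gap. These groups are CPM, several of them with zeros, so their count cannot be set against that rate. Among the CXC chemokines, *Cxcl13* in WT replicate 2 was at 33.71 CPM and in the other WT libraries at 0 to 0.9319 CPM. *Cxcl10* in *Pdgfra-Cre:LmnaF/F* replicate 2 was at 15.75 CPM against 0.2302 to 1.25 CPM in the other 3. *Cxcl2* in WT replicate 1 was at 1.962 CPM against 0 to 0.3106 CPM. Among the receptors and proteases, *Cxcr6* in WT replicate 1 was at 2.99 CPM against 0 to 0.5032 CPM, and *Mmp2* in *Pdgfra-Cre:LmnaF/F* replicate 3 was at 2479 CPM against 2782 to 2799 CPM. Among the NF-kB targets, *Ccl2* in WT replicate 2 was at 10.06 CPM against 28.44 to 32.2 CPM, and *Il6* in WT replicate 4 was at 0.5177 CPM where the other WT libraries were at 0. *Gbp2* in WT replicate 3 was at 155.8 CPM against 41.3 to 46.29 CPM, and *Rc3h1* in *Pdgfra-Cre:LmnaF/F* replicate 1 was at 104.4 CPM against 125.7 to 129.9 CPM. The immediate-early genes *Ier3* and *Nr4a1* were both far higher in *Pdgfra-Cre:LmnaF/F* replicate 3, at 86.23 CPM against 47.34 to 51.51 CPM and at 1312 CPM against 467.1 to 589.3 CPM.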

How the results depend on the processing

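The direction of *Cxcl14*, *Cxcl12*, *Cxcl1* and *Cxcl16* was the same under all 14 alternatives. With each library left out in turn, their log2 fold changes were -3.87 to -3.06, -0.54 to -0.28, 1.59 to 2.86 and -0.34 to -0.03. *Cxcl5* (-0.0255 to 1.67) turned to -0.0914 with Y-linked RNA as a covariate and to -0.0255 without *Pdgfra-Cre:LmnaF/F* replicate 3. *Cxcl10* (-1.76 to 1.83) turned to -0.11 with that covariate and to -1.76 without *Pdgfra-Cre:LmnaF/F* replicate 2. *Cxcl13* (-2.21 to 3.09) turned to 0.60 with the replicate block, to 0.51 with 1 RUVr factor and to 3.09 without WT replicate 2. With single libraries left out, 1 to 3 members did not overlap between the genotypes, *Cxcl12* and *Cxcl1* joining *Cxcl14* without WT replicate 3, where 13.7% of all genes tested did not overlap (10.5% to 13.7% over these fits, 8.03% with all libraries). With TMM or RLE factors, and with no filter, 0 pairs of neighbours in the order of levels pooled over the genotypes held it in all 8 libraries.

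The count of genes past the threshold was 53, and became 309 with DESeq2, 274 with no filter, 81 with RUVr, 119 with Y-linked RNA as a covariate and 13 to 76 with a library left out. That of list genes was 5, and became 21 with DESeq2, 22 with no filter, 11 with RUVr and 0 to 13 with a library left out. The split of higher to lower genes went from 22 to 31 to 44 to 37 with RUVr 63 to 56 with the covariate, 40 to 36 without *Pdgfra-Cre:LmnaF/F* replicate 4, 25 to 24 without WT replicate 3 and 1 to 12 without WT replicate 4. The cause of these differences was not tested. Libraries with the same replicate number did not deviate together (correlations of -0.03, -0.03, 0.00 and 0.04 over 13036 genes), so the numbers were not taken to pair the mice, and the fit with the replicate block called 36 genes, 7 of them from the lists and all 7 higher, without *Sulf2* (edgeR adjusted p = 0.0641). *Cxcl2*, *Cxcl9*, *Cxcl10* and *Cxcl13* had 0 counts in at least 1 library, and their values rest on few counts. *Cxcl9* and *Cxcl13* were at 0 in the deepest library, *Pdgfra-Cre:LmnaF/F* replicate 4. In the shallowest, WT replicate 2, *Cxcl2* and *Cxcl9* were at 0 and *Cxcl13* had 67 counts.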
